A study of Mus musculus with 13 samples.

Results

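Of the 24777 gene symbols counted in 13 mouse libraries, 8 were followed here for their part in the signalling of striatal projection neurons: Drd2, Adora2a, Gpr6, Gng7, Rgs9, Ppp1r1b, Pde10a and Rarb. They were chosen by symbol, and each was present in both count tables. The tissue table held hippocampus of 3xTg mice, which carry human amyloid precursor protein, presenilin and tau mutations, with the amyloid precursor and tau transgenes driven by the Thy1 promoter in neurons. The mice had received adeno-associated virus 9 (AAV9) with Nurr1 and Foxa2 (N+F, 4 libraries) or a control AAV9 (3 libraries), and amyloid beta is named in the labels as a treatment for each of the 7. The culture table held glia from postnatal day 1 ICR pups, in 1 library per group. In each region, hippocampus and cortex, there was an N+F lentivirus with amyloid beta, a control lentivirus with amyloid beta, and a control lentivirus with no amyloid beta, called untreated. Age and sex of the 3xTg mice, the promoters of the viral vectors and pooling of animals are not given in the sources used here.

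Spiny projection neurons make up most of the striatum, and they answer dopamine through cyclic AMP. Neurons of the indirect pathway carry the dopamine D2 receptor, which lowers cyclic AMP, together with the adenosine receptor encoded by Adora2a and the orphan receptor GPR6, which raise it. Neurons of the direct pathway carry the D1 receptor, and both kinds share DARPP-32, the phosphodiesterase PDE10A and the RGS9 protein that shortens G protein signals. The hippocampus has D2 receptors on some of its neurons but no spiny projection neurons, and the striatum lies close to it, so the level of these genes in a hippocampus library also tells of what the dissection held.

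Tissue libraries held 10194437 to 25139406 counts and culture libraries 52189025 to 78273121. Of the delivered genes, Nr4a2, which encodes Nurr1, measured 27.2, 22.0, 25.2 and 33.5 TMM-scaled CPM (CPM being counts divided by the library total, TMM edgeR's scaling of that total) in N+F and 30.1, 19.5 and 44.8 in control tissue (edgeR adjusted p = 0.872), and Foxa2 had 26, 5, 1 and 6 counts in N+F and 5, 1 and 1 in control tissue. Nr4a2 thus did not pass the test, Foxa2 was below the count filter with most of its N+F counts in library 1, and N+F tissue means here the libraries labelled so. In culture Nr4a2 had 488 and 36.9 CPM with N+F in hippocampal and cortical glia, against 3.35 and 5.14 CPM in the amyloid beta controls, and Foxa2 had 8482 and 1059 counts, against 0 in both. Of 9 hippocampal pyramidal markers 8 passed the count filter, and 3 of them, Fibcd1, Spink8 and Neurod6, were lower in N+F past the threshold (edgeR adjusted p = 0.0267, 0.0436 and 0.0342). The pyramidal marker of the highest mean level over the 7 libraries, Wfs1, averaged 88.1 CPM in N+F and 64.8 CPM in control libraries and did not pass (edgeR adjusted p = 0.535). The untreated libraries went against their glia label: the summed level of 7 neuron markers was 198 to 292 CPM in the 4 amyloid beta libraries, against 5450 CPM in the hippocampal and 6053 CPM in the cortical untreated library. Oligodendrocyte markers summed to 173 to 292 CPM in the amyloid beta libraries, against 4390 and 3698 CPM in the untreated ones. The labels do not say whether each replicate is its own animal, and the p-values therefore speak of spread between libraries, which may be technical.

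Promoter sequence was looked at for the members because Nurr1 and Foxa2 bind DNA, Gpr6 and Drd2 belong to cyclic AMP signalling, and Rarb encodes a retinoic acid receptor that is known to act on its own promoter. RefSeq promoter windows of GRCm38.p6, 250 bases before to 50 after the start, were found for 6 of the 8 genes, in 8 windows, and none was found for Adora2a and Ppp1r1b. The pair below is shown because these were the windows that held a response element of the gene's own pathway, printed in capitals.
Rarb, chr14:16575427-16575726, minus strand: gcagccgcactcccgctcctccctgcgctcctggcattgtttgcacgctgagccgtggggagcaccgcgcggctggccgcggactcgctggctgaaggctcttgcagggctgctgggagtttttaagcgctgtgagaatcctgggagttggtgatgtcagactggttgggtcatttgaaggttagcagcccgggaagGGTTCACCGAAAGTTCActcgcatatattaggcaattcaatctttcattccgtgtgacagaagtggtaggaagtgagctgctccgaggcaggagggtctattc
Gpr6, chr10:41072241-41072540, minus strand: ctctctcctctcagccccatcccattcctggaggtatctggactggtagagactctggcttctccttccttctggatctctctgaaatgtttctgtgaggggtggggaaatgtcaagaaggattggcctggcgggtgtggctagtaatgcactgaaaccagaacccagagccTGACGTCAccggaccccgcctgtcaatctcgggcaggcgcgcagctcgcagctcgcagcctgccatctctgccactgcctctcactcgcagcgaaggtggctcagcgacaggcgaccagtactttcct
The capitals in Rarb mark the retinoic acid response element, a direct repeat of GGTTCA and AGTTCA separated by 5 bases, with its first base at position -53 from the start. Of 32851 windows of the same length, searched on both strands, 2 held this exact repeat, or 0.00609%. The letters searched were those of the Rarb element itself, so its match was set by the choice of letters. Looser forms of the element were not searched, and the share does not speak of retinoic acid response elements in general. The capitals in Gpr6 mark the palindromic cyclic AMP response element TGACGTCA at position -78, which 1.79% of windows held. The letters AAAGGTCA, the element that NR4A factors such as Nurr1 bind as monomers, were in 0 of 8 member windows and in 1.51% of all. The forkhead letters TGTTTAC were in 0 of 8 and in 3.65% of all, and the variant TGTTTGC was in the Rarb window alone, at position -213, and in 5.07% of all. A match is a description of the letters and not of a bound site.

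In hippocampus tissue all 8 genes were higher on average in N+F than in control libraries, by 0.41 to 1.03 on the log2 scale, and 0 of 8 passed the test. Across all 15523 genes tested 0.00644% rose and 0.103% fell (edgeR quasi-likelihood test, Benjamini-Hochberg adjusted p under 0.05). Of all genes tested 49.2% had a positive log2 fold change. The median log2 fold change was 0.78 for the 8 genes and -0.0044 for all genes. At an unadjusted p under 0.05, 1 of the 8, Rarb, was higher, against 4.10% of all genes. All 8 genes passed the filter on low counts. A different number of cells of a type and a different amount of RNA per cell cannot be told apart in these bulk samples.

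**Figure D1:**
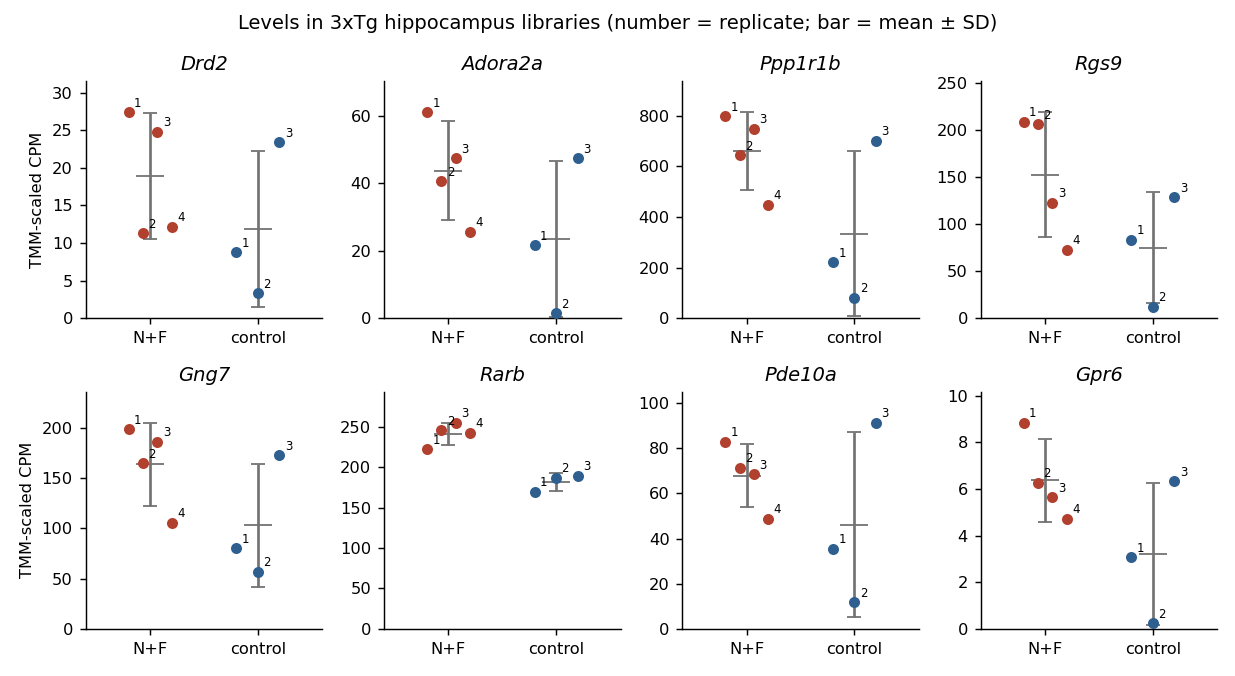
Level of each of the 8 genes in TMM-scaled CPM (vertical axes, linear from 0) in 3xTg hippocampus, N+F libraries left of control libraries; points are libraries numbered by replicate, and grey bars give mean ± SD (n = 4 and 3). Control library 2 was the lowest of the 7 libraries in 7 of the 8 genes, while in Rarb the 4 N+F libraries lay above all 3 controls.

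Among the receptors of the indirect pathway, Drd2, the dopamine D2 receptor, measured 27.4, 11.3, 24.8 and 12.2 CPM (TMM-scaled, as all tissue levels below) in N+F libraries 1 to 4, against 8.81, 3.34 and 23.4 CPM in control libraries 1 to 3. The groups overlapped, since control 3 stood above N+F libraries 2 and 4. The log2 fold change was 0.68 ± 0.51 (SE; edgeR adjusted p = 0.801). Adora2a, the adenosine receptor of that pathway, measured 61.2, 40.7, 47.5 and 25.7 CPM in N+F libraries and 21.7, 1.50 and 47.5 CPM in controls. Control 2 stood far below every other library, with 18 counts, and control 3 lay among the N+F libraries. Its log2 fold change was 0.89 ± 0.65 (edgeR adjusted p = 0.792). Gpr6, an orphan receptor that signals through cyclic AMP without added ligand, measured 8.84, 6.26, 5.63 and 4.72 CPM in N+F libraries and 3.08, 0.251 and 6.32 CPM in controls. The value of control 2 rested on 3 counts, and control 3 again lay inside the N+F range. The log2 fold change was 0.98 ± 0.59 (edgeR adjusted p = 0.729).

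Of the G protein genes, Gng7, the gamma subunit that pairs with the striatal stimulatory G protein, measured 199, 165, 186 and 106 CPM in N+F libraries and 80.1, 57.0 and 173 CPM in controls. Its 3 highest N+F libraries bracketed control 3, and N+F 4 stood closer to controls 1 and 2 than the other N+F libraries did. For Gng7 the log2 fold change was 0.67 ± 0.33 (edgeR adjusted p = 0.633). Rgs9, which speeds the switching off of G proteins downstream of dopamine receptors, measured 209, 206, 123 and 72.8 CPM in N+F libraries and 83.7, 12.1 and 129 CPM in controls. N+F libraries 1 and 2 were above every control, while N+F 4 was below controls 1 and 3. For Rgs9 the log2 fold change was 1.03 ± 0.57 (edgeR adjusted p = 0.692).

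Ppp1r1b encodes DARPP-32, an inhibitor of protein phosphatase 1 once protein kinase A has phosphorylated it. Its level was 799, 644, 748 and 449 CPM in N+F libraries, against 221, 80.3 and 701 CPM in controls. Control 3 lay inside the N+F range, and controls 1 and 2 below it. Its log2 fold change was 0.98 ± 0.52 (edgeR adjusted p = 0.670). Exons of 1700003D09Rik overlap Ppp1r1b on the opposite strand over 460 bases, and no source used here states the strand setting of the counting. That gene measured 345, 182, 244 and 126 CPM in N+F libraries and 58.8, 38.3 and 319 CPM in controls, with the lowest and the highest library the same as for Ppp1r1b. Reads of the pair cannot be told apart where they overlap. Pde10a, a phosphodiesterase that breaks down cyclic AMP and cyclic GMP, measured 82.8, 71.3, 68.6 and 48.9 CPM in N+F libraries and 35.4, 11.7 and 91.3 CPM in controls. It was the one member whose highest library was a control, number 3. Its log2 fold change was 0.56 ± 0.47 (edgeR adjusted p = 0.824).

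Rarb, the retinoic acid receptor beta that striatal neurons need for their development, was the most even of the 8. It measured 222, 245, 255 and 243 CPM in N+F libraries, against 169, 187 and 190 CPM in controls. Every N+F library was above every control, which held for 1 of the 8 genes and for 3.92% of all genes tested, while 0 of the 8 and 4.19% of all lay below every control. Means were 241 ± 13.7 CPM in N+F and 182 ± 10.9 CPM in control libraries (SD, n = 4 and 3). The log2 fold change was 0.41 ± 0.12 (SE; edgeR unadjusted p = 0.00459, adjusted p = 0.291), so the difference did not pass the test over all genes. With DESeq2 the adjusted p was 0.0514, the lowest over 13 alternatives, which reached up to 0.573. Exons of Rarb overlap those of Top2b, a DNA topoisomerase gene, on the opposite strand over 1793 bases, and reads of that stretch cannot be told apart. Top2b had a negative log2 fold change, with 47.2, 50.7, 45.2 and 61.7 CPM in N+F libraries and 59.6, 57.0 and 64.9 CPM in controls (log2 fold change -0.24 ± 0.13, edgeR adjusted p = 0.695).

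Per kilobase of exon, Ppp1r1b had the highest mean level of the 8, with 225 CPM per kilobase in N+F and 114 in control libraries. Rarb had 45.8 in N+F and 34.6 in control libraries, and Gng7 had 43.3 in N+F and 27.3 in control libraries. Rgs9 had 23.9 and Adora2a 14.3 CPM per kilobase in N+F libraries, against 11.7 and 7.69 in controls. Drd2, Pde10a and Gpr6 were lowest, at 7.42, 5.28 and 3.56 CPM per kilobase in N+F and 4.65, 3.59 and 1.80 in control libraries. Exon lengths were taken from the GENCODE M21 mouse annotation and may differ from those the submitters used.

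Over the 7 libraries of both groups, 7 of the 8 genes covered a wide range. The highest library stood above the lowest by 40.7-fold in Adora2a and by 35.3-fold in Gpr6. In 6 of these genes the highest was N+F 1 and the lowest control 2, so the ratio also holds the difference between groups. The ratio was 17.2 in Rgs9, 9.95 in Ppp1r1b, 8.20 in Drd2, 7.80 in Pde10a and 3.49 in Gng7, but 1.50 in Rarb. The median of this ratio over all genes tested was 1.69. The median SD within groups was 1.02 on the log2 scale for the 8 genes and 0.254 for all genes. Control 2 was the lowest library in 7 of the 8 genes, against 15.0% of all genes, and N+F 1 was the highest in 6 of 8, against 11.5% of all. Their summed level was 1609, 1390, 1459 and 961 CPM in N+F libraries, and 623, 353 and 1361 CPM in controls. Without control 2 the median log2 fold change of the 8 was 0.40, and without control 3 it was 1.62. Single genes moved as far: apart from Rarb, the fold changes ran from 0.11 (Pde10a) to 0.52 (Rgs9) without control 2 and from 1.25 (Gng7) to 2.13 (Ppp1r1b) without control 3. Drd2 had 0.25 and 1.58, and Rarb 0.43 in both cases, and 0 of the 8 passed the test in either (edgeR adjusted p from 0.0944 to 0.981). Whether such a spread comes from the dissection was not tested.

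**Figure D2:**
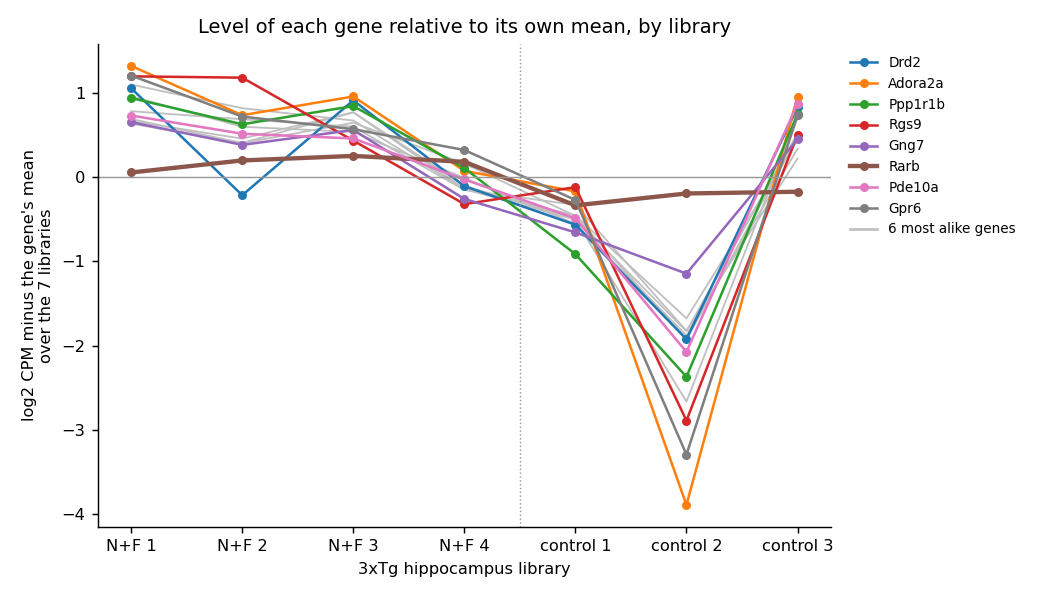
log2 CPM of each gene minus its own mean over the 7 tissue libraries (vertical axis), N+F libraries left and control libraries right of the dotted line; coloured lines are the 8 genes and grey lines the 6 genes with the most similar profile. Adora2a lay 3.89 below its mean in control 2, whereas Rarb stayed between -0.33 and 0.25 in all 7 libraries.

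Apart from Rarb, all members were lowest in control 2, and the ratio between members was steadier in some pairs than in others. Of the 28 pairs, Adora2a and Gpr6 held the steadiest ratio, with 5.44 to 8.44 counts of Adora2a for each of Gpr6 in N+F and 6.0 to 7.51 in control libraries (SD of the log2 ratio 0.209 over the 7 libraries). That order rests on control 2, where Gpr6 had 3 counts: without it Adora2a and Gng7 were the steadiest pair, at 0.126 against 1.26 over all 7, and Adora2a and Gpr6 were at 0.212. Over all 7 libraries Ppp1r1b and Pde10a came next, with ratios of 9.65, 9.03, 10.9 and 9.18 in N+F libraries and 6.23, 6.86 and 7.68 in controls. This was the one pair of 28 whose ratio did not overlap between groups, it was picked out after its values were seen, and with 4 libraries against 3 an exact two-sided permutation test cannot go below 0.0571. Adora2a and Rarb were the loosest pair, with an SD of 1.75, but 0.537 without control 2, when Drd2 and Rgs9 were the loosest, at 0.696. Over the 21 pairs without Rarb the median SD was 0.591, or 0.331 with control 2 left out. Over the 7 pairs with Rarb it was 1.10 in all 7 libraries. Neither this SD nor the share of pairs that do not overlap was worked out for other genes. In control 2 the ratio of Drd2 to the D1 receptor gene Drd1 was 0.952 and that of Adora2a to Drd1 was 0.429, against 0.276 to 0.673 and 0.998 to 1.34 in the other 6 libraries. These ratios rest on 40 counts of Drd2 and 18 of Adora2a in that library.

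Compared with all 15040 other genes of at least 1 CPM, the profiles nearest to the members' mean profile were those of Penk, Tac1, Slc35d3, Drd1, Rasgrp2 and Ankrd63, in that order. Likeness was measured as the root mean square distance of centred log2 levels over the 7 libraries, and it was 0.164 for Penk and 0.253 for Ankrd63, with a median of 1.03 over all candidates. Penk and Tac1 encode the precursors of enkephalin and of substance P, the peptides of the indirect and the direct pathway neurons. Penk measured 961, 787, 931 and 665 CPM in N+F libraries and 432, 155 and 826 CPM in controls, so control 2 was lowest and control 3 lay inside the N+F range. Tac1 measured 112, 87.4, 83.8 and 57.3 CPM in N+F libraries and 39.2, 15.5 and 72.8 CPM in controls, in the same pattern. Among the members Pde10a was nearest to the mean profile, at 0.144, and Rarb farthest, at 0.905.

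Other genes of striatal projection neurons had a median fold change of like size. Of 29 such genes in 3 lists, 0 passed the test, 28 had a positive log2 fold change, and the median was 0.77. Of all genes tested 49.2% were positive. The lists were chosen with earlier results of these data known. The list genes were lowest in control 2 in 23 of 29, against 15.0% of all genes. In the indirect pathway list Penk had the highest level, with a log2 fold change of 0.83 ± 0.40 (SE, edgeR adjusted p = 0.628). Grik3 and Ptprm of that list had smaller ones, 0.19 ± 0.13 and 0.30 ± 0.17 (edgeR adjusted p = 0.782 and 0.701). Sp9, a transcription factor of indirect pathway neurons, had 36.6 ± 6.78 CPM in N+F and 21.4 ± 6.48 CPM in control libraries (SD, n = 4 and 3), with a fold change of 0.77 ± 0.22 (edgeR adjusted p = 0.287). In the direct pathway list Tac1, Pdyn and Drd1 had fold changes of 1.00, 1.00 and 0.95 on the log2 scale (edgeR adjusted p = 0.479, 0.272 and 0.692). Pdyn, the dynorphin precursor, was the one list gene that DESeq2 called. Sfxn1, a mitochondrial serine carrier, was the one gene of the 29 below 0, at -0.18 ± 0.13. Among genes shared by both neuron types, Meis2, Rasd2 and Foxp1 had log2 fold changes of 0.37, 0.57 and 0.43, with edgeR adjusted p of 0.590, 0.340 and 0.775.

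**Figure D3:**
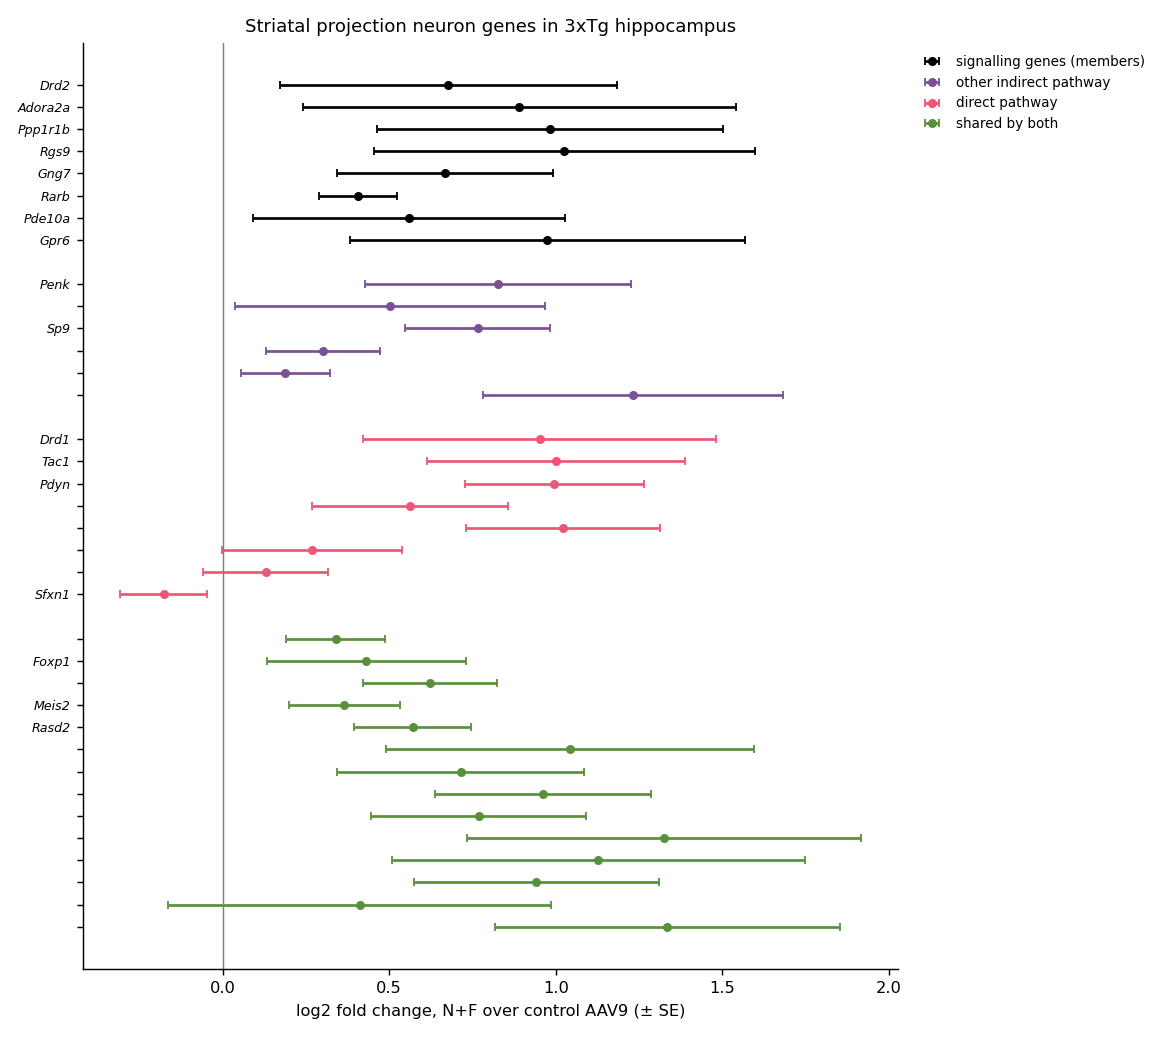
log2 fold change of N+F over control libraries in 3xTg hippocampus (horizontal axis, ± SE). Shown are the 8 members and 28 other striatal projection neuron genes in 3 lists, with the members and some others labelled. All 8 members and 27 of the 28 others drawn lie above 0, against 49.2% of all genes tested, and 0 of the 36 passed the test.

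Of 24 genes of the wider cyclic AMP and DARPP-32 pathway, 0 passed the test, 18 had a positive log2 fold change, and the median was 0.11. Of all genes tested 49.2% were positive. The 4 with the highest levels were Gnas, the widespread stimulatory G protein, Ppp3ca, a calcineurin subunit, Rgs7bp, which anchors RGS proteins, and Gnao1, an inhibitory G protein. Their log2 fold changes were -0.088 ± 0.14, 0.14 ± 0.25, 0.54 ± 0.26 and 0.11 ± 0.15 (SE; edgeR adjusted p from 0.633 to 0.933). Gnal, the striatal stimulatory G protein, and Adcy5, the striatal adenylyl cyclase, were named after their values were seen. Gnal averaged 166 ± 20.4 CPM in N+F and 118 ± 31.7 CPM in control libraries, and Adcy5 156 ± 37.6 in N+F and 106 ± 52.1 in control libraries (SD, n = 4 and 3). Both were lowest in control 2, as were 10 of the 24 and 15.0% of all genes.

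Among 24 family relatives of the 8 that passed the count filter, 0 passed the test and the median log2 fold change was 0.05. It was positive in 12, against 49.2% of all genes tested. In 3 of the 24 relatives every N+F library was below every control, against 4.19% of all genes tested. In 1 every N+F library was above every control, against 3.92% of all. Adora1, the adenosine A1 receptor that lowers cyclic AMP, was among the 3, with 77.9 ± 4.27 CPM on average in N+F and 102 ± 2.05 CPM in control libraries. Its log2 fold change was -0.39 ± 0.11 (SE; edgeR adjusted p = 0.279), against 0.89 for its relative Adora2a. Ppp1r1a, a phosphatase inhibitor like DARPP-32, had a fold change of 0.39 ± 0.16, Gng3 one of 0.15 ± 0.13 and Pde2a one of 0.098 ± 0.13 (edgeR adjusted p = 0.497, 0.833 and 0.904).

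Markers of other cell types that the dissection could hold are given here beside these values. The summed level of 10 inhibitory neuron markers was 980 to 1176 CPM in N+F and 753 to 881 CPM in control libraries. Of these 10, 6 were lowest in control 2, against 15.0% of all genes. That of 6 cholinergic markers was 28.2 to 64.7 CPM in N+F and 17.1 to 47.7 CPM in controls, with 1 marker at 0 in a library. That of 5 septal markers was 87.3 to 137 CPM in N+F and 71.6 to 107 CPM in controls, and 1 of them, Nts, rose (edgeR adjusted p = 0.0481). In the other direction, 9 pyramidal markers summed to 172 to 215 CPM in N+F and 227 to 304 CPM in controls, with 3 of the 8 tested lower in N+F past the threshold, and 6 dentate granule markers to 20.9 to 33.4 CPM in N+F and 34.1 to 94.1 CPM in controls. Mossy cells, hippocampal neurons known to carry the D2 receptor, had 3 markers that summed to 165 to 291 CPM in N+F and 149 to 230 CPM in controls. Calb2, the highest of the 3, overlapped between groups. Calcrl and Csf2rb2 averaged 48.8 and 38.8 CPM in N+F and 34.3 and 26.9 CPM in controls (edgeR adjusted p = 0.252 and 0.279). Every N+F library was above every control in 2 of the 3 mossy cell markers, against 3.92% of all genes tested. Control 2, the lowest library of most members, was the highest in granule markers. Mural and fibroblast markers summed to 41.4 to 62.1 CPM in N+F libraries and to 62.1, 367 and 335 CPM in control libraries 1 to 3. Col1a1, a fibroblast collagen, fell (log2 fold change -4.21, edgeR adjusted p = 0.0375). Of 6 neocortex markers, which summed to 162 to 214 CPM in N+F and 138 to 172 CPM in controls, 1 fell, Fezf2, a factor of deep-layer neurons (log2 fold change -1.27, edgeR adjusted p = 0.0375). Oligodendrocyte precursor markers summed to 36.9 to 52.6 CPM in N+F and 56.0 to 68.2 CPM in controls, and endothelial markers to 28.7 to 46.3 CPM in N+F and 41.5 to 68.4 CPM in controls. In 8 other lists, those of mossy cells, thalamus, all neurons, astrocytes, microglia, oligodendrocytes, choroid plexus and ependyma, 0 markers passed the test. The same held for the lists of inhibitory, cholinergic and dentate granule neurons, oligodendrocyte precursors and endothelial cells. The part of these cell types in the levels of the 8 genes was not tested.

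In the cultures N+F and the amyloid beta control were compared in each region. Of the 8 members 6 were measured, and 0 of these differed at least 2-fold in CPM + 1 in either region. Of all genes with at least 1 CPM in a library of the pair, 5.60% were at least 2-fold higher and 0.767% lower in hippocampal glia, and 12.9% higher and 15.1% lower in cortical glia. With 1 library per group there is no replicate error and no test, and intervals below cover counting error only. Culture ratios are given as log2 ratios of CPM + 1, which understate differences of low genes, and the count covers 6 of the 8 genes, those with 1 CPM or more. Drd2 and Gpr6 were below that in each of these 4 libraries.

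Rarb was higher with N+F in both regions. It had 13.9 CPM (95% Poisson interval 13.0 to 14.9) with N+F and 9.15 CPM (8.48 to 9.87) in the amyloid beta control of hippocampal glia. In cortical glia it had 24.2 CPM (23.1 to 25.3) with N+F and 12.9 CPM (11.98 to 13.8) in the amyloid beta control. The log2 ratios were 0.55 and 0.86. TMM scaling moved the median log2 ratio of all genes from -0.16 to 0.007 in cortical glia and from 0.12 to -0.0058 in hippocampal glia, and with it Rarb in cortical glia reached 1.03 and so passed 2-fold, while in hippocampal glia it came to 0.43. The untreated libraries had less, 6.02 CPM (5.45 to 6.64) in hippocampal and 6.90 CPM (6.20 to 7.65) in cortical glia. Its antisense neighbour Top2b had 194 CPM with N+F and 139 CPM in the amyloid beta control of hippocampal glia, but 117 and 161 CPM in cortical glia.

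Genes of the retinoid pathway to which Rarb belongs were among those that differed in culture. Of 14 measured genes, 5 were at least 2-fold higher with N+F than in the amyloid beta control in hippocampal glia and 10 in cortical glia, and 0 were lower in either. Of all genes 5.60% and 12.9% were higher by that measure, and 0.767% and 15.1% lower. The list was chosen with earlier results of these data known, so its counts describe it and test nothing. The 5 in hippocampal glia were Aldh1a1, Aldh1a3, Rbp4, Cyp26b1 and Dhrs3. Aldh1a1, which makes retinoic acid, had 148 CPM with N+F and 13.3 CPM in the amyloid beta control of hippocampal glia, and 42.7 and 39.4 CPM in cortical glia. Cyp26b1, which breaks retinoic acid down, was named after its values were seen and was high in both, with 19.5 CPM with N+F against 4.43 CPM in hippocampal and 40.9 CPM with N+F against 2.70 CPM in cortical glia. The receptor gene Rara had log2 ratios of -0.31 and 0.78 in hippocampal and cortical glia. The cortical N+F library also held mural and fibroblast markers at a sum of 9117 CPM, against 496 CPM in its amyloid beta control, while these sums were 1346 and 1290 CPM in hippocampal glia. Their part in the retinoid values was not tested. In tissue 0 of 14 retinoid genes passed the test and the median log2 fold change was -0.06.

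**Figure D4:**
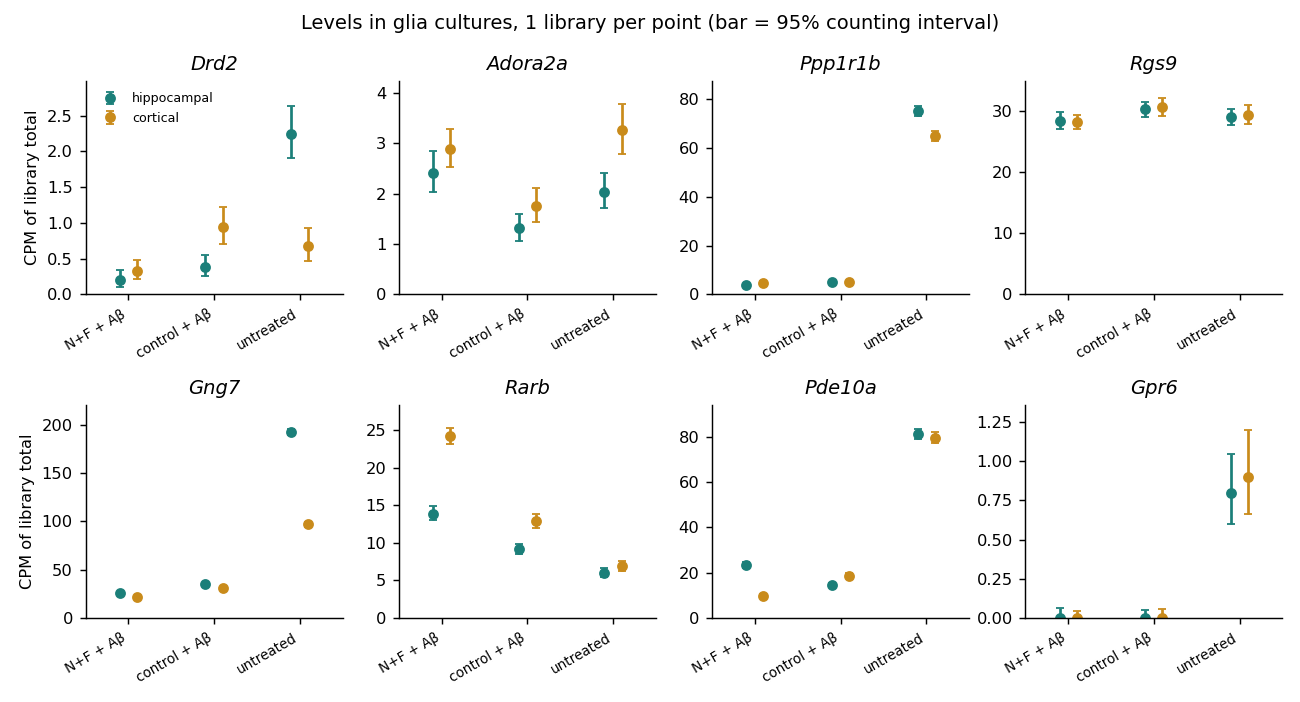
Level of each of the 8 genes in CPM of the library total (vertical axes, linear from 0) in hippocampal and cortical glia cultures, in the order N+F with amyloid beta, control with amyloid beta, untreated; each point is 1 library and bars are 95% Poisson intervals of the count. Ppp1r1b, Gng7 and Pde10a were highest in both untreated libraries, Rgs9 stayed between 28.1 and 30.6 CPM, and Rarb was highest with N+F in both regions.

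Levels of the other members with N+F and in its control are given next, by role. Adora2a had 2.41 CPM with N+F and 1.31 CPM in the amyloid beta control of hippocampal glia, and 2.89 and 1.75 CPM in cortical glia, for log2 ratios of 0.56 and 0.50. Drd2 had 0.198 and 0.388 CPM in hippocampal and 0.332 and 0.939 CPM in cortical glia in the same order, from 12 to 57 counts. The ratio of these levels was 0.511 (95% counting interval 0.238 to 1.03) in hippocampal and 0.354 (0.214 to 0.572) in cortical glia. Gpr6 had 0 counts in all 4 amyloid beta libraries, with upper 95% Poisson limits of 0.0471 to 0.0610 CPM. Gng7 was lower with N+F in both, at 25.8 against 35.0 CPM in hippocampal and 22.2 against 30.8 CPM in cortical glia, with log2 ratios of -0.43 and -0.45. Rgs9 differed by -0.086 and -0.12 on the log2 scale, the second of which became 0.05 with TMM scaling. Ppp1r1b had 3.85 CPM with N+F and 5.05 CPM in the amyloid beta control of hippocampal glia, and 4.77 and 4.92 CPM in cortical glia. Pde10a had log2 ratios of opposite sign, with 23.3 against 14.7 CPM in hippocampal glia and 9.93 against 18.8 CPM in cortical glia.

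Between the amyloid beta control and the untreated library, 4 of 7 measured members were at least 2-fold lower with amyloid beta in hippocampal glia. In cortical glia 3 of 6 were. Measured genes had at least 1 CPM in the pair, which left out Gpr6 in both regions and Drd2 in cortical glia. Of all genes 25.6% and 25.4% were lower by that measure and 21.0% and 19.8% higher. The comparison shares its amyloid beta control library with the one above, and the untreated libraries are those with neuron and oligodendrocyte markers. Ppp1r1b had 5.05 CPM in the amyloid beta control and 75.2 CPM in the untreated library of hippocampal glia, and 4.92 and 65.0 CPM in cortical glia. Its antisense neighbour 1700003D09Rik had 0 counts in these 4 libraries. Gng7 had 35.0 and 192 CPM in hippocampal and 30.8 and 96.9 CPM in cortical glia, and Pde10a had 14.7 and 81.3 CPM and 18.8 and 79.6 CPM, in the same order. These genes were highest in the libraries that held the most neuron, oligodendrocyte, microglia and endothelial markers. Microglia markers summed to 472 and 490 CPM in the hippocampal and cortical untreated libraries, against 67.3 to 233 CPM in the amyloid beta libraries. The part of each cell type was not tested. Drd2 had 0.388 CPM in the amyloid beta control and 2.25 CPM in the untreated library of hippocampal glia, and 0.939 and 0.671 CPM in cortical glia. Gpr6 was counted in the untreated libraries alone, with 54 counts in hippocampal and 47 in cortical glia. With 3 counts set in place of 0, it was 19.9-fold and 18.2-fold lower in the amyloid beta controls. These folds leave out counting error.

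Rgs9 did not follow the neuron markers, with 28.4, 30.2 and 28.9 CPM in the N+F, amyloid beta control and untreated libraries of hippocampal glia and 28.1, 30.6 and 29.4 CPM in cortical glia. Adora2a had its highest value, 3.26 CPM, in the untreated cortical library and its lowest, 1.31 CPM, in the hippocampal amyloid beta control. Between regions, the untreated hippocampal library had 3.35 times the Drd2 level of the cortical one (95% counting interval 2.31 to 4.99) and 1.98 times its Gng7 level (1.92 to 2.05). Ppp1r1b and Pde10a differed less, with ratios of 1.16 (1.11 to 1.21) and 1.02 (0.982 to 1.06).

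The culture table held several lines for 6 of the 8 genes, and the number of lines equalled the number of curated RefSeq transcripts for all 8 and for 84.0% of 23518 symbols. No source used here says which line stands for which transcript, so lines are numbered in file order. The first line of Pde10a held 1114 counts in the untreated hippocampal and 3365 in the untreated cortical library, against 0 to 4 counts in the 4 amyloid beta libraries. Its second line held 777 to 4382 counts in all 6. The first line thus held 81.0% of Pde10a counts in the untreated cortical and 20.3% in the untreated hippocampal library, although the CPM of the gene was close in both. Gng7 had 31.1% and 32.5% of its counts on its first line in the untreated hippocampal and cortical libraries, against 0 to 8.66% in the others. Rgs9 was split in every library, with 52.7 to 69.6% on its second line. Rarb had 81.1 to 100% of its counts on its second line, so its higher level with N+F stood mainly on 1 line.

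**Figure D5:**
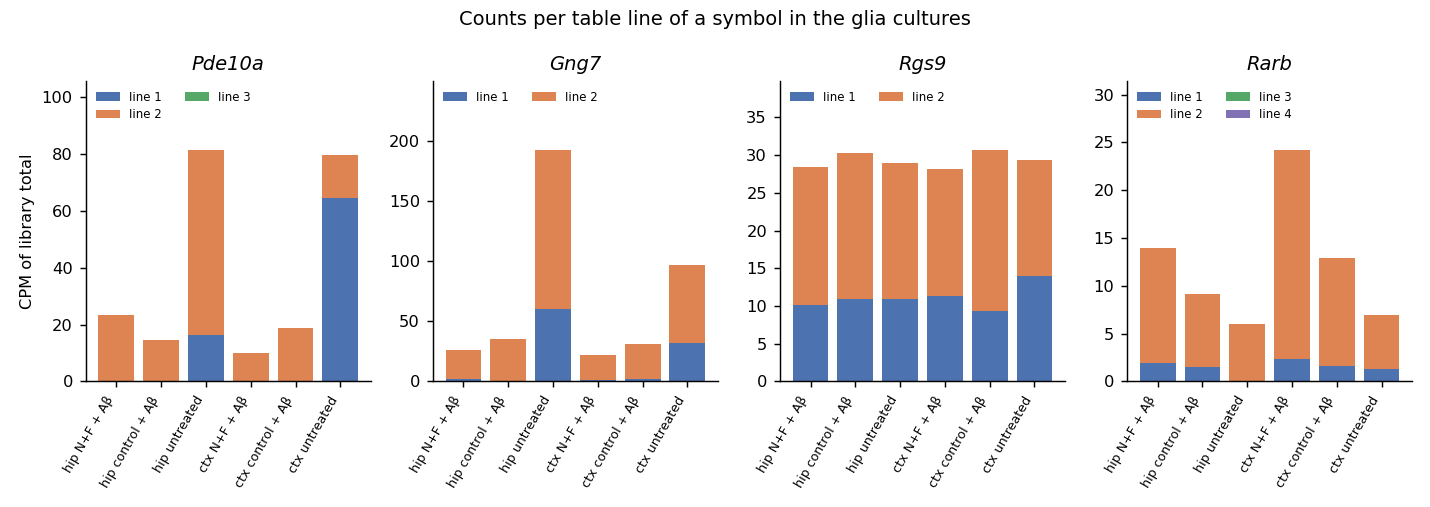
CPM of the library total (vertical axes, from 0) for each table line of 4 members with several lines, stacked by line, in hippocampal (hip) and cortical (ctx) cultures, each in the order N+F with amyloid beta, control with amyloid beta, untreated. The first line of Pde10a is seen in the untreated libraries, where it held 20.3% of counts in hippocampal and 81.0% in cortical glia.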

How the data were processed

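The authors deposited whole-number counts in lines named by gene symbol, and library totals differ. Total RNA (1.3 µg per library, Trizol) was made into SMARTER libraries, per the labels' protocols. The submitters' processing notes name TopHat, HISAT2 and edgeR, with no version, and a human build, hg19, for tables of mouse symbols, so the build was treated as not established. The strand setting of the counting is not stated in any source used here. The 23282 tissue lines and 36780 culture lines were summed to 23238 and 24542 symbols, and 0 value columns were left unused. Whether lines of a symbol share reads is not known, so summed culture counts may hold a read more than once. The Poisson intervals leave that out.

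The tissue fit used edgeR 4.0.16 (R 4.3.3): filterByExpr by group, TMM factors 0.895 to 1.11, glmQLFit and glmQLFTest without a block, and Benjamini-Hochberg adjustment over 15523 genes (biological coefficient of variation 0.206). The fit was tested on simulated data. Culture values are CPM of the library total; a gene counted as apart at 2-fold in CPM + 1, with at least 1 CPM in the pair. No pair of replicate tissue libraries was a repeat deposit (chi-square per gene 15.0 to 56.1 between their counts). DESeq2 1.42.0, other scalings and filters, line choice and leaving out each library were alternatives.

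All 8 members are named. From the lists, genes past the test and otherwise up to 4 of the highest tissue level are named, and others are said to be named after their values were seen. A few genes that this rule takes are not reported here. The members and lists were chosen with earlier results of these data known. Motifs were searched as exact letters on both strands. Promoter sequences are RefSeq's, with GRCm38.p6.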

Additional observations from a re-analysis of the deposited data

Results flagged for a closer look

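Pde10a had log2 ratios of opposite sign between N+F and the amyloid beta control in the 2 regions of culture, 0.63 in hippocampal and -0.86 in cortical glia. The levels were 23.3 CPM with N+F against 14.7 CPM in hippocampal glia and 9.93 CPM with N+F against 18.8 CPM in cortical glia. With 1 library per group the difference between regions was not tested. The signs stayed the same with TMM scaling, at 0.51 and -0.70.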

How the results depend on the processing

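The 8 members kept a positive log2 fold change in tissue under all 13 alternatives, and 0 passed the test under any of them, but the size for 7 of them depends on controls 2 and 3 (Pde10a 0.11 to 1.50, Drd2 0.25 to 1.58); the depth of Gpr6 in control 2, at 3 counts, limits its value. Of all genes 17 passed the test, against 145 with DESeq2, 29 with no count filter, and 0 to 29 with 1 library left out: 29 without control 1, 3 without control 2, 1 without control 3, and 0 without any 1 N+F library. Same-numbered libraries were not treated as pairs in the main fit. The r of their deviations was -0.0013, -0.083 and 0.13, and so few values cannot exclude a pairing. With the replicate block 0 genes passed and the members' median log2 fold change was 1.30. DESeq2 called 1 of the 29 striatal list genes, against 0. In cortical glia 1 member (Rarb) passed 2-fold between N+F and its control with TMM scaling, against 0. Pde10a reversed between the amyloid beta control and the untreated cortical library when the line with the highest total stood for the symbol, at 0.24 against -2.03, since the untreated library has most of its counts on the other line. The permutation test for members below the count filter was not run, since none was below it.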

Other observations

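Penk, the enkephalin precursor of indirect pathway neurons, differed widely between culture libraries. It had 48.2 CPM (3771 counts) with N+F and 0.527 CPM (32 counts) in the amyloid beta control of cortical glia, and 4.53 and 2.33 CPM in hippocampal glia. The untreated libraries had 41.0 CPM in cortical and 21.9 CPM in hippocampal glia. Of the other 5 genes of its indirect pathway list, Ptprm had 65.7 CPM in the cortical N+F library and 56.3 CPM in its amyloid beta control, Grik3 had 3.97 and 12.4 CPM, and Sp9 had 0.409 and 1.56 CPM, while Gpr52 and Upb1 were below 1 CPM in both. Drd2 was at 0.332 and 0.939 CPM there, and Rarb at 24.2 and 12.9 CPM. The cortical N+F library's mural and fibroblast markers summed to 9117 CPM, against 496 CPM in its amyloid beta control. Whether these values go together was not tested.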
